A study of Mus musculus with 175 samples.

Results

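The P2-hCD4 negative megakaryocyte-erythroid progenitors (P2- MEPs) were the population of mouse fetal liver cells sorted as MEPs in which the hCD4 reporter of the Runx1 P2 promoter was not detected. All cells with this sort label were taken, and 1 of the 57 was left out because its reads were almost only spike-in RNA, so that 56 P2- MEPs were described, of the 172 single cells that passed the filters out of 175 in all. The other 3 populations served as background, namely 47 of 48 P2+ MEPs and, from the common myeloid progenitors (CMPs), 27 of 27 sorted as P2- and 42 of 43 sorted as P2+. All 4 populations came from E14.5 fetal livers of C57BL/6 crossed with ICR, and no treatment is named. The embryos carried the Runx1 P1-GFP::P2-hCD4 double reporter on 1 allele in the protocol label, while the genotype label reads Runx1 P2-GFP::P2-hCD4/+. The livers of 2 litters were pooled before sorting, so each population is 1 sample without a replicate, its cells are not replicates, and no p-value was computed. The study gated MEPs as Lin- Sca1- cKit+ CD16/32low CD34- CD41- CD150+ cells and CMPs as their CD34+ counterparts. The labels call the CMPs low and high, read here as P2- and P2+, and 1 CMP whose subtype label says MEP was kept as a CMP. Human CD4 was not among the counted features, so the reporter that divided the cells could not be checked in these counts.

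MEPs give rise to the erythroid and the megakaryocytic lineage, and in the fetal liver most of their output is erythroid. The step from progenitor to red cell precursor is driven by the transcription factor Gata1, with Tal1, Lmo2 and Ldb1 as partners, and by Klf1, which turns on genes of heme synthesis, of the red cell membrane and, later, of globin. Gata2 and Runx1 act in earlier progenitors, and Fli1 opposes Klf1 and favours the megakaryocytic programme.

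Each library was made from the cDNA of 1 cell by a modified Smart-Seq2 protocol, which has no molecular identifiers, so copies made by PCR were counted. P2- MEPs had 295064 to 888658 reads on mouse genes (median 520540). Levels are given as counts per 1000000 reads on mouse genes (CPM), either of 1 cell or pooled over the cells of a population, with 95% intervals (exact Poisson for levels, exact conditional binomial for log2 ratios, Clopper-Pearson for shares, order statistics for medians over cells) that cover counting error only. Cells in which a gene was read are counted at 100000 reads drawn from each cell, unless full depth is named. In 1 P2- MEP the 18S ribosomal RNA gene Rn18s-rs5 took 1.097% of the reads, against 2.63% in the next lowest and 7.35% in the highest, and results that change without this cell are given both ways. Reads of Xist (34 cells) or of Y-linked genes (18 cells) marked P2- MEPs from embryos of both sexes, 2 cells had both, 2 had neither, and 1 well had at least 10 reads of both. No caller for wells with more than 1 cell was run, and 0 of the 175 columns were identical to another.

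The sorted identity was checked first against 7 markers of the erythroid side of the MEPs. These were the transcription factors Klf1 and Cited4 (a transcriptional co-regulator), Ermap and Rhag (red cell membrane proteins), Mt1 (a metal-binding metallothionein), Blvrb (biliverdin reductase B) and Cpox (coproporphyrinogen oxidase of heme synthesis). Reads of all 7 genes were present in 44 of the 56 P2- MEPs, and at least 6 of them in 54. Outside the P2- MEPs all 7 were present in 7 of 47 P2+ MEPs and in 0 of 27 and 0 of 42 of the P2- and P2+ CMPs. The markers were proposed with results of these cells known, so that their values are a description of the population and no independent evidence for its name. Of the genes that define the gate, Kit had reads in 56 of 56 P2- MEPs, Ly6a (Sca1), Fcgr2b and Fcgr3 (CD16/32) had 0 reads and Cd34 had 1 read in the population. Slamf1, the gene for the CD150 protein on which the cells were sorted, was read in 7 of 56 cells (9 at full depth). Its pooled level was at least 2-fold below that of each other population. This held for 2 of the 4 sort genes tested (Slamf1 and Runx1) and for 4.28% of all genes tested.

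Klf1 was found in every P2- MEP, with a lowest cell of 221.2 CPM, a median of 477 and a highest of 895. The P2+ MEPs ran from 0 to 846 CPM with a median of 210.9, and 3 of the 116 cells outside the P2- MEPs were above the P2- MEP median. The groups therefore overlapped at the upper end but not in their lower range, where P2+ MEPs and CMPs without any Klf1 read had no counterpart among the P2- MEPs. The pooled Klf1 level was 478 CPM (470 to 485), and its log2 ratio over the P2+ MEPs, the highest other population, was 0.97 (0.93 to 1.01).

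Cpox had a lowest P2- MEP of 199 CPM, a median of 506 and a highest of 937, against a highest of 609 in any P2+ MEP. It therefore showed the most cells beyond the range of the others among the markers, with 17 P2- MEPs above every cell of the other populations. Pooled Cpox was 513 CPM (505 to 521), 1.38 (1.34 to 1.42) above the P2+ MEPs on the log2 scale. Blvrb, which reduces biliverdin, the breakdown product of heme, lay between 122 and 827 CPM in P2- MEPs (median 415), with 9 cells above all others and a log2 ratio of 1.27 (1.22 to 1.31). Mt1, which binds zinc and copper, ran from 120.0 to 1821 CPM (median 1074), and its log2 ratio was 0.81 (0.79 to 0.84).

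Ermap and Rhag, both proteins of the red cell surface, differed from the 4 genes above in that single P2- MEPs had none of their reads. Ermap reached 801 CPM with a median of 337.5 and reads in 55 of 56 P2- MEPs (55 at full depth). In the P2+ MEPs 23 of 47 cells had reads (25 at full depth), and all 42 P2+ CMPs were at 0. Its log2 ratio over the P2+ MEPs was 1.51 (1.45 to 1.57). Rhag ran from 0 to 483 CPM (median 102), was read in 44 of 56 P2- MEPs (46 at full depth), and 15 of them exceeded every other cell. The pooled log2 ratio of Rhag was 2.63 (2.51 to 2.75), the largest of the 7, over 21.4 CPM in P2+ MEPs. Cited4 showed the smallest difference of the markers. Its P2- MEPs lay between 0 and 593 CPM (median 280.7), none was above all other cells, and the log2 ratio was 0.44 (0.39 to 0.49).

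**Figure D1:**
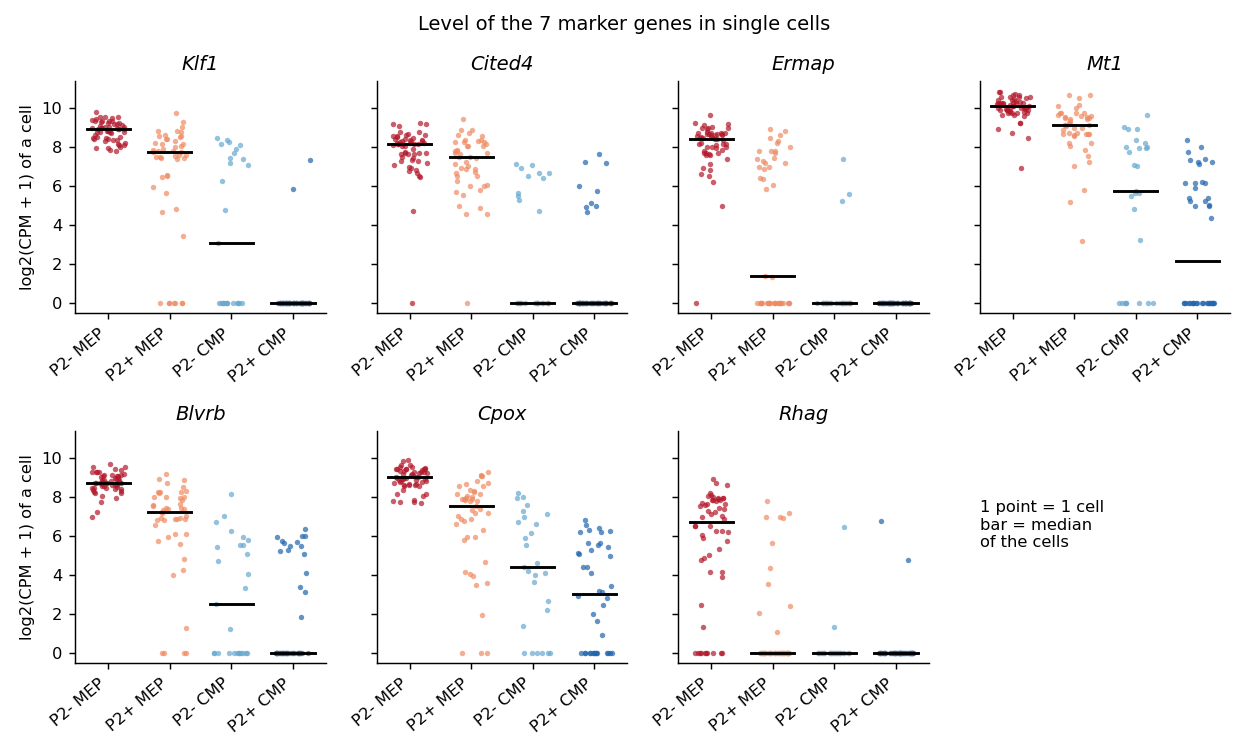
Level of the 7 marker genes in single cells, as log2(CPM + 1) on the vertical axis, with 1 point for each of the 172 cells, coloured by population, and a bar at the median of each population. All P2- MEPs hold Klf1, Mt1, Blvrb and Cpox reads, while a group of P2- MEPs lies at 0 for Rhag and the CMPs lie mostly at 0 for Ermap and Rhag.

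The 7 markers gave at most a weak common order of the P2- MEPs. Over the 56 cells, Spearman's rho of the 21 marker pairs was between -0.11 and 0.43 with a median of 0.26, in cells that share a pool and a preparation. The summed marker level of the thinned cells ranged from 1300 to 4700 CPM (median 3205). For the P2+ MEPs the summed level was 90 to 4230 CPM (median 1420), so the ranges overlapped widely at the upper end.

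Since Klf1 and Gata1 proteins act through short DNA motifs, the 250 bases before the RefSeq start of marker genes (GRCm38.p6) are shown for the 4 markers with a GATA hexamer within 100 bases of the start. The hexamers searched on both strands were AGATAA, also AGATAG, also TGATAA and also TGATAG. Capitals mark them in the 5′ to 3′ sequence of the strand of the gene, and the Cpox stretch of capitals holds 2 overlapping matches. The windows are chr8:84901732-84901981 on the plus strand (Klf1), chr4:119189996-119190245 on the minus strand (Ermap), chr16:58669958-58670207 on the plus strand (Cpox) and chr17:40810899-40811148 on the plus strand (Rhag).
Klf1: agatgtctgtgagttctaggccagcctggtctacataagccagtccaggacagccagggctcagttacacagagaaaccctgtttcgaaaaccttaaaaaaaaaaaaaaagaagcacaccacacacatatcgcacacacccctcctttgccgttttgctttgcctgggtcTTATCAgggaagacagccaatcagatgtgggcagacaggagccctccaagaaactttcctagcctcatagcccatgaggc
Ermap: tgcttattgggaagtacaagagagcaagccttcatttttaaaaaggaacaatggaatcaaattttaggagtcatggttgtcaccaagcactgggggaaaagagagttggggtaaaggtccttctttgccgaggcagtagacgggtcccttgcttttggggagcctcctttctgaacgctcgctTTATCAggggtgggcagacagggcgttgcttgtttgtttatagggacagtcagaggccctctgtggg
Cpox: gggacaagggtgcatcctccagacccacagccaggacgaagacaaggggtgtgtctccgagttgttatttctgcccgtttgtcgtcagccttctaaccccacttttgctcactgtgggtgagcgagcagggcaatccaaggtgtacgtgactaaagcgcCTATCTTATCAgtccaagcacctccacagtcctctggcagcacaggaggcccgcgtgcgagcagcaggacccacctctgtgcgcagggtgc
Rhag: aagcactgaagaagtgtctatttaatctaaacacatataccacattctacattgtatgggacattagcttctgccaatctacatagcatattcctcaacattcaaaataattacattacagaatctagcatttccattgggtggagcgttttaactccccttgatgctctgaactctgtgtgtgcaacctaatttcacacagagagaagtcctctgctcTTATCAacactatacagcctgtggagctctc
The matches begin 80 bases before the start in Klf1, 67 in Ermap, 91 and 86 in Cpox and 31 in Rhag. Of the 7 markers, 6 had such a match in this window and Cited4 had none. The same letters occurred in 26.5% of all 32851 RefSeq promoter windows of that length and in 16.2% of the windows of the tested genes, or in 29.7% of all genes and 19.0% of the tested genes. The motif CCNCNCCC, of the kind bound by Klf family proteins, occurred on either strand in 2 of the 7 markers, against 48.5% of all genes with a window and 68.4% of the tested genes. Among the 65 of 102 genes at least 2-fold higher in P2- MEPs than in every other population that had a window, 20 held a GATA hexamer (30.8%), against 19.0% of all tested genes with a window, 29.7% of all genes with one and 23.6% of the genes called lower. The Klf motif was held by 67.7% of these higher genes. A match of letters does not show binding, and the absence of a match says only that these letters are not in the window.

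Across the transcriptome, a gene was called higher when its pooled level in P2- MEPs was at least 2-fold above the highest of the other 3 populations, and lower when it was at least 2-fold below the lowest of them. Of 8837 genes that could be tested for the first, 102 were higher (1.15%), and of 7867 for the second, 4.28% were lower. The median log2 ratio over all tested genes was -0.32 over the highest and 0.31 over the lowest other population. Of the 7 markers, 4 were higher (Ermap, Blvrb, Cpox and Rhag). The 15 genes of highest ratio were ranked among genes of at least 50 pooled CPM in P2- MEPs, and all 15 had P2+ MEPs or P2- CMPs as the next population, as drawn in the plot of pooled levels.

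Atp7b, a copper-transporting ATPase, showed the highest ratio among the genes of at least 50 pooled CPM. The gene lies on the minus strand at chr8:21992785-22060305 (GRCm38, GENCODE vM21). P2- MEPs ran from 0 to 325.4 CPM with a median of 59.2, and 42 of 56 had a read (44 at full depth), against 3 of 47 P2+ MEPs and 1 cell in each CMP population. Its pooled level of 80.9 CPM was 44.0-fold above the 1.84 CPM of the P2+ MEPs, a log2 ratio of 5.46 (5.08 to 5.86). Only 2 cells outside the P2- MEPs were above the P2- MEP median.

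Sphk1 encodes a sphingosine kinase, which makes a signalling lipid that erythroid cells release. It was read in 33 of 56 of them (39 at full depth), from 0 to 392 CPM with a median of 30.7, and in 1 P2+ MEP, while both CMP populations had 0 reads. With 22 P2- MEPs above every other cell, it had the largest such number among the 15 genes, and the pooled log2 ratio was 4.89 (4.54 to 5.26). Rhd, the partner of Rhag in the Rh complex of the red cell membrane, was read in 30 of 56 P2- MEPs (34 at full depth) with a median of 22.1 CPM and a highest cell of 292.3. In P2+ MEPs it was read in 4 cells, and the pooled log2 ratio was 3.41 (3.18 to 3.65).

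Pklr, which encodes the pyruvate kinase of red cells and liver, lay between 0 and 272.2 CPM (median 89.5) and was read in 52 of 56 P2- MEPs (54 at full depth). In P2+ MEPs it was read in 9 of 47, in P2- CMPs in 0 (1 at full depth) and in P2+ CMPs in 0. Its log2 ratio was 2.79 (2.65 to 2.94), with 21.97% of its exon bases shared with the overlapping gene Hcn3. Atp1b2, a beta subunit of the sodium-potassium pump, had a median of 109 CPM (0 to 390), 48 of 56 cells with a read and a log2 ratio of 2.68 (2.55 to 2.81). Both genes thus were present in most P2- MEPs and in the minority of P2+ MEPs.

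The genes of highest ratio also held 2 that were expressed in every P2- MEP and at some level elsewhere. Asns, asparagine synthetase, ran from 41.9 to 1094 CPM (median 309.4) in P2- MEPs, with pooled levels of 352.7 CPM there and 79.9 to 96.5 CPM in the other populations. Its log2 ratio of 1.87 (1.80 to 1.94) stood over the P2- CMPs, and 11 P2- MEPs were above all other cells. Tnfaip2 lay between 45.5 and 817 CPM (median 271.8). Its pooled level was 294.5 CPM, against 88.5 in the P2+ MEPs, 34.8 in the P2- CMPs and 4.46 in the P2+ CMPs, so the CMP populations were further from the P2- MEPs than the P2+ MEPs were.

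The remaining genes among the 15 were Hebp1 (a heme-binding protein, log2 ratio 1.96), Oaf (1.84), Prelid2 (1.77), Tspo2 (a translocator protein of erythroid cells, 1.73), Add2 (beta adducin of the membrane skeleton, 1.62) and Emc9 (1.55), beside the markers Rhag and Ermap. Tspo2 had 15.8% of its reads in 1 of the 56 cells, and its ratio was 2.08 when the cell of highest level was left out of each population. Hebp1 was the most evenly present of these, with reads in 49 of 56 P2- MEPs and a median of 49.7 CPM. Add2 was read in 45 of 56 cells (47 at full depth), with a median of 69.8 CPM and a highest cell of 318.3.

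**Figure D2:**
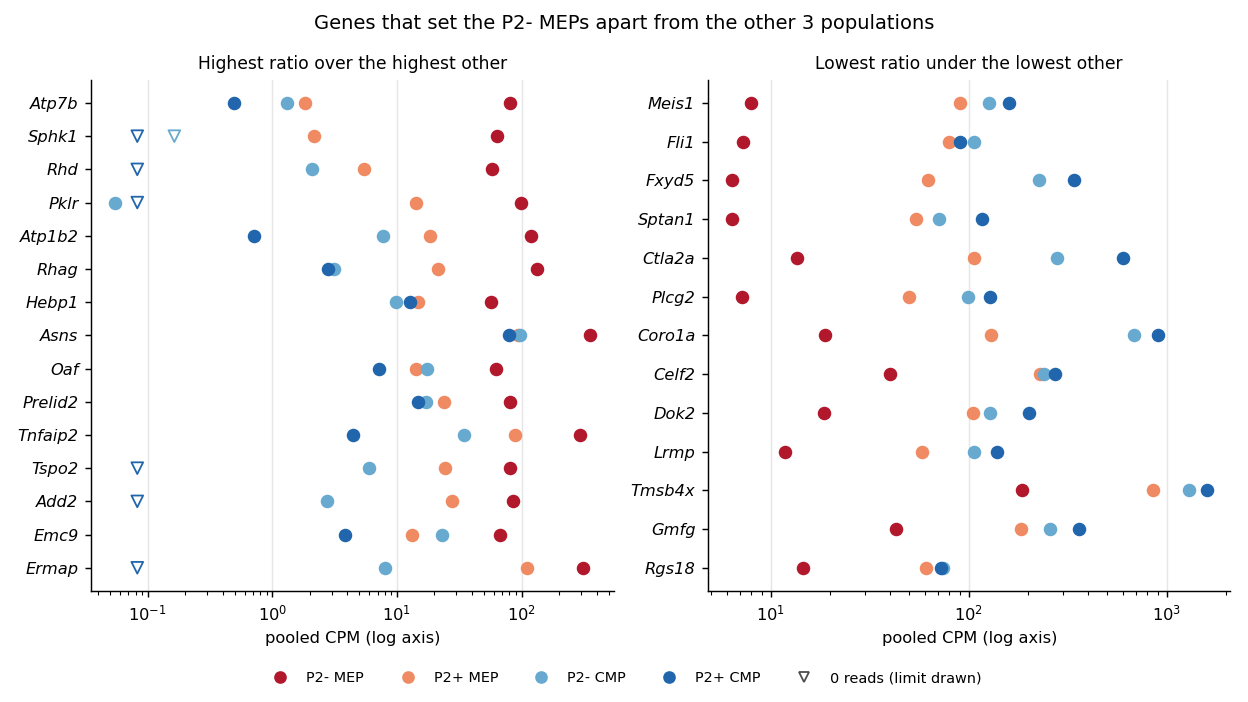
Pooled level (CPM, log axes that differ between the panels) of the 15 genes of highest ratio over the highest other population and 13 of the 15 of lowest ratio under the lowest, among genes of at least 50 pooled CPM in the higher one, with 1 point per population and an open triangle, at 3 reads over the population, where a population had 0 reads. For the higher genes the P2- MEPs lie furthest right, from 44.0-fold (Atp7b) to 2.85-fold (Ermap), and for the lower genes furthest left, from 11.3-fold (Meis1) to 4.20-fold (Rgs18).

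Genes of the red cell membrane and its skeleton were the list with the most members called higher. Of its 19 genes 15 could be tested and 8 were higher, with a median log2 ratio of 1.08, against the 1.15% of all tested genes and their median of -0.32. Rhag, Rhd, Ermap and Add2 are given above. Tspan33, a tetraspanin, was read in 41 of 56 P2- MEPs (0 to 187.5 CPM, median 29.8) with a log2 ratio of 2.18 (1.997 to 2.36). Aqp1, a water channel, was read in 35 of 56 cells (41 at full depth), from 0 to 309.1 CPM with a median of 28.3, and its log2 ratio was 1.08 (0.95 to 1.20).

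The other membrane genes did not reach the 2-fold limit or were barely read. Ank1 (ankyrin) had a log2 ratio of 0.78, Kel 0.36, Epb41 (protein 4.1) 0.27, Dmtn 0.98, Gypc -0.02, Sptb (beta spectrin) -0.21 and Xk -0.40. Slc4a1, which encodes band 3, the main anion exchanger of red cells, had 26 reads from 3 of 56 P2- MEPs at full depth, and Epb42 had reads in 2 cells. The membrane genes of the P2- MEPs therefore did not move as 1 block. Summed over the list, P2- MEPs held 1044 CPM pooled and 190 to 2140 CPM in single cells (median 985), against 469 in the pooled P2+ MEPs and 174 and 175 in the pooled P2- and P2+ CMPs.

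Heme synthesis begins in the mitochondrion with aminolevulinate synthase, the step of Alas1 in most cells and of Alas2 in erythroid cells. Alas2 had 33 reads in the 56 P2- MEPs, from 4 cells at full depth and with 54.5% of them in 1 cell. Alas1 was read in 23 cells (28 at full depth), at 17.4 CPM pooled against 22.1, 51.4 and 55.3 CPM in the other populations. Of the enzymes that follow, Alad ran from 341.6 to 1465 CPM (median 823) and was read in 56 of 56 P2- MEPs. Its log2 ratio over P2+ MEPs was 0.68 (0.66 to 0.71), under the 2-fold limit.

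Urod, read in 55 of 56 P2- MEPs, had a log2 ratio of 0.60 (0.55 to 0.65) and Fech, ferrochelatase, read in 51, one of 0.61 (0.54 to 0.68). Uros lay at -0.53 and Tmem14c, a porphyrin transporter of the inner mitochondrial membrane, at -0.40. Cpox was the 1 gene called higher among the 12 heme genes tested, whose median was 0.60, against 1.15% and -0.32 over all tested genes. Abcb10, Slc25a38, Fam210b and Ppox had log2 ratios of 0.65, 0.78, 0.55 and 0.25. In pooled reads of the whole list P2- MEPs held 2518 CPM, against 1652, 821 and 658 CPM, and each of the 56 cells had at least 1360 CPM. The enzymes of the pathway were thus read unevenly, since Uros was read in 28 of 56 P2- MEPs (29 at full depth) and Ppox in 32 (35), while the erythroid form of the first step was at 1.08 CPM.

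Tfrc, the transferrin receptor that brings iron into the cell, was read in all 56 P2- MEPs, from 7.10 to 783 CPM with a median of 259.8. In the P2+ MEPs 33 of 47 cells had reads. The cells overlapped, with 5 of the 116 other cells above the P2- MEP median, and the pooled log2 ratio was 1.45 (1.39 to 1.51). Slc40a1, the iron exporter ferroportin, had a log2 ratio of 1.27 (1.14 to 1.41) and was read in 30 of 56 cells (34 at full depth). These were the 2 genes called higher of the 12 iron genes tested (list median 0.32), against 1.15% and -0.32 over all tested genes. Fth1, the heavy chain of the iron store ferritin, lay between 599 and 2958 CPM (median 1637) and was above all other cells in 20 P2- MEPs, although its pooled ratio was 0.56 (0.53 to 0.58). Tfr2, Slc25a37, Slc11a2 and Steap3 lay at 0.87, 0.48, 0.27 and 0.01, and Hfe had 0 reads.

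Globin reads were few. Hbb-bs, an adult beta globin, was read in 23 of 56 P2- MEPs (26 at full depth), with a highest cell of 1151 CPM that held 51.0% of all Hbb-bs reads of the population. Its pooled level was 65.6 CPM, against 111 CPM for the P2+ MEPs and under 1 CPM in each CMP population (0.545 and 0.605). Hba-a1 (4.21 CPM) and Hbb-bh1 (4.31 CPM) were lower still, and Hbb-bt was at 9.51 CPM, 24.4-fold below the 232.2 CPM of the P2- CMPs. None of the globin genes that could be tested was called higher (0 of 2) or lower (0 of 1), against 1.15% and 4.28% of all tested genes. So few tested genes cannot be told apart from those shares. Over the list a P2- MEP held 0 to 1040 CPM with a median of 10, and 20 cells had no globin read after thinning. The medians of this sum in the P2+ MEPs, P2- CMPs and P2+ CMPs were 20, 30 and 60 CPM. Pooled, the list summed to 86.7 CPM in P2- MEPs, the lowest of the 4 populations, with 121.7 CPM in the next lowest, the P2+ CMPs. Globin genes have near-identical copies that could share or lose reads in the counting, so the split between copies is uncertain.

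Of 16 erythroid transcription factors tested 0 were called higher and 1, Gata2, was called lower, against 1.15% and 4.28% of all tested genes. Their median log2 ratio over the highest other population was -0.08. Klf1 was closest to the 2-fold limit, at 0.97 as given above. Gata1 was read in every P2- MEP, from 73.7 to 560.4 CPM (median 258.97), and its log2 ratio over P2+ MEPs was 0.16 (0.12 to 0.21), with 21 of 116 other cells above the P2- MEP median. Tal1 stood at -0.10, Ldb1 at 0.08, Gfi1b at 0.02, Bcl11a at 0.17, Myc at 0.19 and Myb at -0.16. Lmo2 (-0.56) and Zfpm1, the Gata1 partner Fog1 (-0.53), had levels below those of the P2+ MEPs and above those of both CMP populations. Besides Gata2, Nfe2 and Foxo3 were the factors with a pooled level below all 3 other populations, with log2 ratios under the lowest of -0.30 and -0.23, within the 2-fold limit.

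Gata2, which precedes Gata1 in progenitors, was the 1 factor of the 16 called lower, with 4.28% of all tested genes lower. It was read in 27 of 56 P2- MEPs (32 at full depth), from 0 to 173.5 CPM with a median of 9.28. The other populations had reads in 46 of 47 P2+ MEPs and in 25 of 27 and 35 of 42 of the P2- and P2+ CMPs. Its pooled 35.2 CPM was 2.90-fold below the P2+ CMPs, the lowest other population, a log2 ratio of -1.53 (-1.63 to -1.44), and 104 of 116 other cells lay above the P2- MEP median. Runx1, whose P2 promoter carries the reporter, was read in 34 of 56 P2- MEPs (37 at full depth), from 0 to 81.7 CPM (median 17.2), with a pooled 23.4 CPM against 57.0, 71.5 and 156 CPM. Reads of the coding gene do not separate P1 from P2 transcripts in a count per gene, and the ratio under the P2+ MEPs was -1.29 (-1.41 to -1.16).

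Among receptors and signalling genes, Epor, the erythropoietin receptor, was the 1 gene of 13 called higher (1.15% of all tested genes). It was read in 54 of 56 P2- MEPs (0 to 425.5 CPM, median 165) with a log2 ratio of 1.102 (1.03 to 1.17), and 12 other cells were above the P2- MEP median. Kit, the stem cell factor receptor, was at 293.3 CPM in P2- MEPs, within 1.26-fold of each other population. The STAT5 target genes Socs2 (-1.74) and Bcl2l1 (-1.64), and Id1 (-1.74), were called lower, 3 of the 12 tested against 4.28% of all tested genes, with reads in 16, 14 and 11 P2- MEPs. Of the 2 metallothioneins Mt2 was called higher (log2 ratio 1.64, 1.46 to 1.82), although 73.5% of its exon bases are shared with another annotated gene.

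The 15 genes of lowest ratio were ranked among genes with at least 50 pooled CPM in the lowest other population, so that genes of lower level with larger differences, such as Cd79b and Angpt1 below, are not among them. Meis1, a homeobox factor of stem cells, was read in 10 of 56 P2- MEPs (14 at full depth), none above 88.0 CPM. Its pooled level was 90.2 to 159 CPM in the other populations, and in the P2- MEPs it was 11.3-fold below the P2+ MEPs (log2 ratio -3.49, -3.69 to -3.30). In Meis1, 18.3% of the exon bases are shared with another gene.

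Fli1, which drives the megakaryocytic lineage, was read in 12 of 56 P2- MEPs (15 at full depth), with a median of 0 and a highest cell of 83.5 CPM, and was 10.9-fold lower than in the P2+ MEPs. Of the 8 megakaryocytic genes tested 6 were lower, against 4.28% of all tested genes, and 7 of the list's 16 had 0 reads (Pf4, Gp9, Gp1bb, Itgb3, Ppbp, Selp and Clec1b). The whole list summed to 84.6 CPM pooled in P2- MEPs, against 698, 641 and 775 CPM. In 9 P2- MEPs none of its 16 genes was read. Itga2b, the gene of the CD41 protein used to exclude cells, was the main exception, with reads in 24 of 56 cells (26 at full depth) and 33.6 CPM against 32.0 CPM in the P2- CMPs.

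Of the other genes among the 15 lowest, named by rank, 3 encode proteins of the cytoskeleton. Sptan1 (alpha-II spectrin, the non-erythroid form) was read in 6 P2- MEPs and lay 8.53-fold below the P2+ MEPs. Coro1a (coronin, an actin-binding protein of leukocytes) was read in 21 and was 6.90-fold lower. Tmsb4x (thymosin beta 4, which binds actin monomers) was still read in 51 of 56, from 0 to 765 CPM with a median of 157, and 113 of the 116 other cells were above that median. Gmfg lay at -2.11, Fxyd5 at -3.29, Ctla2a at -2.97, Plcg2 at -2.81, Celf2 at -2.52, Dok2 at -2.51, Lrmp at -2.31 and Rgs18 at -2.07.

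Reads of most lists of other blood lineages and of other liver cells were at or near 0, those of the stem and multipotent list apart. Of the granulocyte and monocyte list 11 of 17 genes had 0 reads, and the 2 that could be tested were lower (Spi1 -2.10 and Prtn3 -1.81), as were 4.28% of all tested genes. The list summed to 16.4 CPM in P2- MEPs, against 89.1, 616 and 895 CPM. Lymphoid genes had 0 reads in 10 of 12, among them Cd79b, a component of the B cell receptor, which was at 21.8 CPM in the P2+ MEPs, so that its log2 ratio was -7.79 or lower. Of the stem and multipotent genes 3 of 5 tested were lower (Meis1, Cd93 and Angpt1, the last by 22.3-fold) and 3 of 13 had 0 reads, with 4.28% of all tested genes lower. The mast cell and basophil list had 7 of 10 genes at 0, the macrophage list 8 of 10, the hepatocyte list 4 of 11 and the endothelial and stromal list 5 of 10. Summed levels of these 4 lists were 11.6, 0.229, 15.7 and 20.5 CPM in P2- MEPs. Dlk1, Pecam1 and Eng were their members that could be tested in the lower direction, and all were called lower (-1.72, -1.66 and -1.31). Of the lineage cocktail genes 8 of 10 had 0 reads, and Ptprc (CD45) was lower (-3.15). The defining genes of macrophages (C1qa, C1qb, C1qc and Adgre1), which erythroid cells surround in the fetal liver, were at 0.

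Several lists of general cell functions were at similar levels. Of 22 DNA replication and 21 mitosis genes 0 were higher and 0 lower, where 1.15% and 4.28% of all tested genes were. The 12 nucleolar genes, which make and process ribosomal RNA, likewise had 0 calls in either direction, with a median of 0.23 over the highest and a summed level of 11948 CPM against 10128, 8645 and 7701 CPM. Immediate early genes, which respond to stimulation and to tissue handling, were lower in 4 of 10 tested (Egr1 -1.96, Ier3 -1.69, Zfp36 -1.56 and Fos -1.44), against 4.28% of all tested genes, and summed to 586 CPM against 1274 to 1332 CPM. Whether cell handling differed between the populations was not tested. Y-linked genes (0 of 2 tested) and Xist had no call in the higher direction, and 0 of 1 each in the lower.

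On a scale per length (pooled CPM per kilobase of exon), the highest genes in P2- MEPs were Rn18s-rs5 (22631), the mitochondrial mt-Rnr2 (11593), Rplp1 (5549), mt-Nd1 (5285), mt-Cytb (4402) and Rpl36 (3838). Lgals1, a galectin at 2272 CPM per kilobase, was the gene among the 15 highest that is neither ribosomal, mitochondrial nor a translation factor. The 18S gene shares 73.9% of its exon bases with another feature, so its value is uncertain. The 10 genes with the most reads held 11.4% of P2- MEP reads and the top 100 held 28.4%, compared with 13.5% to 15.9% and 29.2% to 30.6% in the other populations.

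RNA content was estimated as reads on mouse genes per spike-in read, since the same spike-in RNA was added to each well. P2- MEPs had a median of 67.4 (interval 61.9 to 72.9), with cells from 34.7 to 142. The P2+ MEPs had a median of 39.3, and 5 of 47 exceeded the P2- MEP median. The medians of the P2- and P2+ CMPs were 45.8 and 56.7, with 2 of 27 and 10 of 42 cells above it. The populations overlapped, with P2- MEPs at the upper end, 1.71-fold above the P2+ MEPs by the medians. The 18S share moved the other way, with a median of 5.64% of reads in P2- MEPs against 7.10%, 8.67% and 10.8%. At 100000 reads P2- MEPs had 5315 to 6946 genes (median 5951.5), while P2+ CMPs had a median of 5916. A shift in RNA content is not seen in CPM, which are relative to the reads of each population, and the labels give no plate, so a plate effect on these ratios cannot be told apart from the population.

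Single P2- MEPs resembled the rest of their population more than cells of the other populations resembled theirs. Spearman's rho of a thinned cell with the summed counts of the other cells had a median of 0.735 (0.727 to 0.747) in P2- MEPs, with cells from 0.661 to 0.792, against 0.672 in the P2+ MEPs and 0.658 and 0.683 in the P2- and P2+ CMPs. More genes were read in every cell of the P2- MEPs (1454) than in every cell of the others (996 to 1081), although they were the population with the most cells. P2- MEPs also had the highest median RNA content, as given above. The part of RNA content and of the number of cells in these similarities was not tested. When all pools were drawn to 2600000 reads, 56 of 56 P2- MEPs correlated most with the pool of P2- MEPs, whereas 33 of 47 P2+ MEPs did so with their own pool, as did 2 of 27 and 37 of 42 of the P2- and P2+ CMPs. Of the P2+ MEPs, 14 correlated most with the P2- MEP pool, as did 1 P2- CMP and 0 P2+ CMPs. The distances were small, with medians of P2- MEPs of 0.728 to their own pool, 0.715 to the P2+ MEP pool, 0.692 to P2- CMPs and 0.683 to P2+ CMPs.

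Variation between the 56 cells was set against that of the ERCC spike-in RNAs, which are the same in each well. Counts of a gene were scaled by the reads of the cell on mouse genes, and those of a spike-in by its spike-in reads. The squared coefficient of variation (CV, the SD over the mean) of 48 spike-ins was fitted against their mean count, and a gene was called variable when its squared CV was at least 4 times this fit. The most abundant spike-ins make up much of the spike-in reads, which holds down their CV by construction. With the constant of the fit at 0, a small CV was enough for a call at high counts, such as 0.17 in Rn18s-rs5 and 0.36 in Lgals1. Of 4615 genes that averaged 20 or more counts, 15 were called (0.325%), while 2982 (64.6%) lay below the fit and the median gene was at 0.894 times the fit. The 15 calls fell to 7 when the highest cell was left out for each gene, to 9 among genes with a mean of at least 100 counts, and to 5 in cells thinned to 100000 reads or at 9 times the fit. The share called was 0.222% for the P2+ MEPs and 0.385% and 0.267% for the P2- and P2+ CMPs. Each population had its own fit, which was higher at a like mean count than that of the P2- MEPs. Most genes therefore spread less between P2- MEPs than added RNA of like abundance did.

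The 7 markers lay between 0.84 and 1.99 times the spike-in fit, where the median gene was at 0.894. Blvrb was at 0.84 times the fit, Klf1 at 0.94, Cpox at 1.08, Cited4 at 1.19, Ermap at 1.34, Rhag at 1.96 and Mt1 at 1.99, and Gata1 was at 0.80. All 7 therefore had under 2 times the squared CV of added RNA of like abundance.

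The called genes fell into a few kinds. Vim, the intermediate filament vimentin, which is lost as red cells mature, ran from 0 to 1088 CPM (median 198) and was at 5.26 times the fit, with 8 of 56 cells without a read at full depth. Apoe, an apolipoprotein made by several liver and blood cells, ran from 0 to 1448 CPM (median 311.9, 4.89 times the fit). Lgals1 was read in all cells, from 713 to 4094 CPM (median 2124, 4.91 times). In these 3 genes no single cell held more than 7.35% of the reads, and they were still called when the highest cell was left out.

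Gfi1b, a repressor needed in erythroid and megakaryocytic cells, ran from 0 to 1450 CPM with a median of 149 and was at 4.19 times the fit, but 9.97% of its reads came from 1 cell and it was not called without that cell. Dusp1 (4.46 times, 0 to 757 CPM) and Fos (4.04 times, 0 to 888 CPM) are immediate early genes. Top2a, a topoisomerase of dividing cells, ran from 39.7 to 1416 CPM (4.04 times). Hbb-bs (10.2 times) rested on the 1 cell described above. Xist, the RNA of the inactive X chromosome of female cells, was at 4.01 times the fit. Car1, carbonic anhydrase 1, was at 6.06 times the fit (0 to 1008 CPM, median 52.5).

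Arl5c, an ARF-like GTPase, was at 9.14 times the fit, with 13.9 CPM in the median cell, 1479 CPM in the highest and 27.1% of its reads in 1 cell. Its log2 ratio over the P2- CMPs was 1.37, but 0.94 without the P2- MEP of low 18S share, and Arl5c was not called variable without that cell, nor were Lars2 and Xist. Rn18s-rs5 itself was at 27.7 times the fit and at 15.9 times without that cell. The other called genes were mt-Rnr2 (19.7), Gm26917 (10.5) and Lars2 (4.05). Rn18s-rs5, mt-Rnr2 and Gm26917 lie above the highest spike-in mean of 2203 counts, where the fit is an extrapolation.

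Just under the limit lay Terf2ip (3.69), Cd24a (3.58), Eef1a1 (3.51) and Ube2c (3.42). The genes of least spread included copies of ribosomal protein genes such as Rps16-ps2 (0.031 times the fit) and Rpl10a-ps1 (0.049), whose reads may be shared with their parent genes. Of the 15 called genes 9 were also called in P2+ MEPs and 6 in each CMP population, and 4 (Apoe, Fos, Gm26917 and mt-Rnr2) in all. Vim, Gfi1b, Dusp1 and Arl5c were called in P2- MEPs and in none of the others, where Vim was at 2.995, 2.57 and 1.65 times the fit. The slope of the fit on 1 over the mean count was 30.4 in P2- MEPs, against 61.8 in P2+ MEPs and 59.0 and 55.1 in P2- and P2+ CMPs. At a like mean count a smaller squared CV was therefore enough for a call in P2- MEPs. The difference between populations was not tested.

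**Figure D3:**
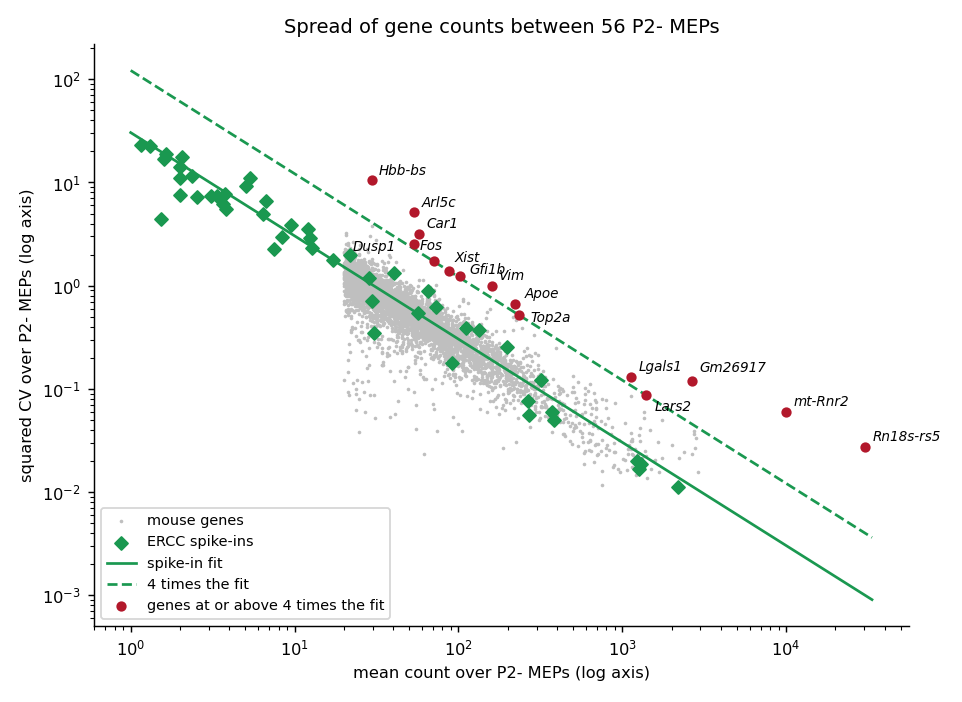
Squared CV over the 56 P2- MEPs (vertical log axis) against the mean count (horizontal log axis), with grey points for mouse genes, diamonds for the ERCC spike-ins, a solid line for the spike-in fit and a broken line at 4 times the fit. The 15 named points lie at or above the broken line, from 4.01 times the fit (Xist) to 27.7 times (Rn18s-rs5), while 64.6% of genes lie below the solid line.

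Cells of the population differed in cell cycle genes. The summed level of 22 DNA replication genes ran from 2280 to 8140 CPM (median 5815) in thinned P2- MEPs, and that of 21 mitosis genes from 1860 to 8840 CPM (median 4005), so that none of the 56 cells was without both. The sums were inversely ordered over the 56 cells, which share a pool and a preparation, with a rho of -0.68. The rho was -0.66 in the P2+ MEPs and -0.63 and -0.57 in the P2- and P2+ CMPs. Since both sums are taken from the same 100000 reads, part of an inverse order is set by construction.

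Outside the lists, the genes that followed the mitosis sum most closely were Kpna2 (importin alpha 2, rho 0.71), Kcnn4 (a calcium-activated potassium channel, 0.53), Odf2 (a centriole protein, 0.53), Hn1 (0.49) and Reep4 (0.48). Ung (-0.70) and Slbp (-0.60), members of the replication list, ran opposite to it. Rfc3 (0.52), Gmnn (geminin, which prevents a second round of replication, 0.46) and Rpa2 (0.46) followed the replication sum, together with Sdhaf2 (0.49). Plk1 (-0.61), Ube2c (-0.60), Cenpf (-0.59) and Zfpm1 (-0.55) ran opposite to it, of which Zfpm1 belongs to neither list.

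**Figure D4:**
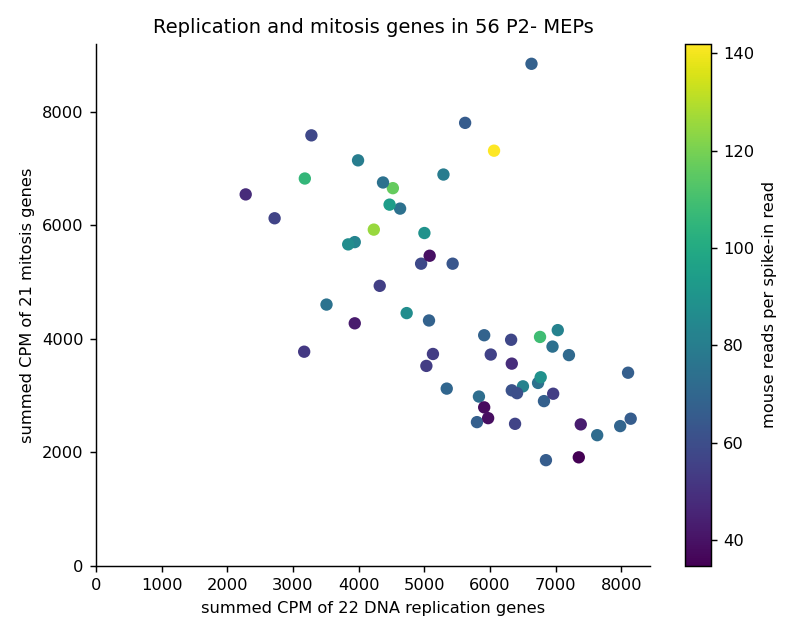
Summed level of 22 DNA replication genes (horizontal axis, CPM of the cell thinned to 100000 reads) and of 21 mitosis genes (vertical axis, same unit), with 1 point for each of the 56 P2- MEPs and colour for mouse reads per spike-in read. Cells high in one sum tended to be low in the other (rho -0.68), with exceptions, among them the cell of the highest mitosis sum (8840 CPM), whose replication sum of 6630 CPM was above the median.

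The main axis of variation inside the population was small. The first principal component (PC1) of the 56 cells alone, over the 500 genes of highest variance, held 4.51% of the variance, followed by 3.38% and 3.13%. The genes at one end were Rhd (rho of its level with PC1 0.61), Sphk1 (0.55), Htatip2 (0.52), Rgcc (0.52), Tmem56 (0.49), Gypc (0.49), Rhag (0.48), Trip11, Pgs1 and Clcn3. At the other end lay Zyx (zyxin, a focal adhesion protein, -0.63), Pkp4 (-0.59), Vim (-0.54), Egr1 (-0.46), Klk8, Parm1, Rev3l, Apaf1, Itga2b and Sptbn1. Rhd, Sphk1 and Rhag were among the genes that set the population apart, whereas Zyx was lower in P2- MEPs than elsewhere (42.8 CPM against 171 to 223.9 CPM).

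The rho with PC1 was 0.66 for the red cell membrane sum, 0.53 for the heme sum, 0.51 for the mitosis sum, 0.46 for the marker sum and 0.41 for the iron sum, and -0.55 for the immediate early sum. Lists share genes with those that built PC1 (Rhag is both a marker and a membrane gene, and Egr1 an immediate early gene), so these values are in part given by construction. RNA content followed PC1 with a rho of 0.66 and the number of genes at 100000 reads with 0.71, while the number of mouse reads per cell had one of 0.05. RNA content itself had a rho of 0.25 with the membrane sum, 0.32 with the heme sum and 0.39 with the mitosis sum. With the marker, iron and immediate early sums it had rho of 0.36, 0.08 and -0.25. The part of RNA content in PC1 was not tested. The membrane sum was ordered with the iron sum (0.52) and the heme sum (0.46) over the cells, and opposite to the immediate early sum (-0.43). With 56 cells of 1 pool these are descriptions of this preparation.

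**Figure D5:**
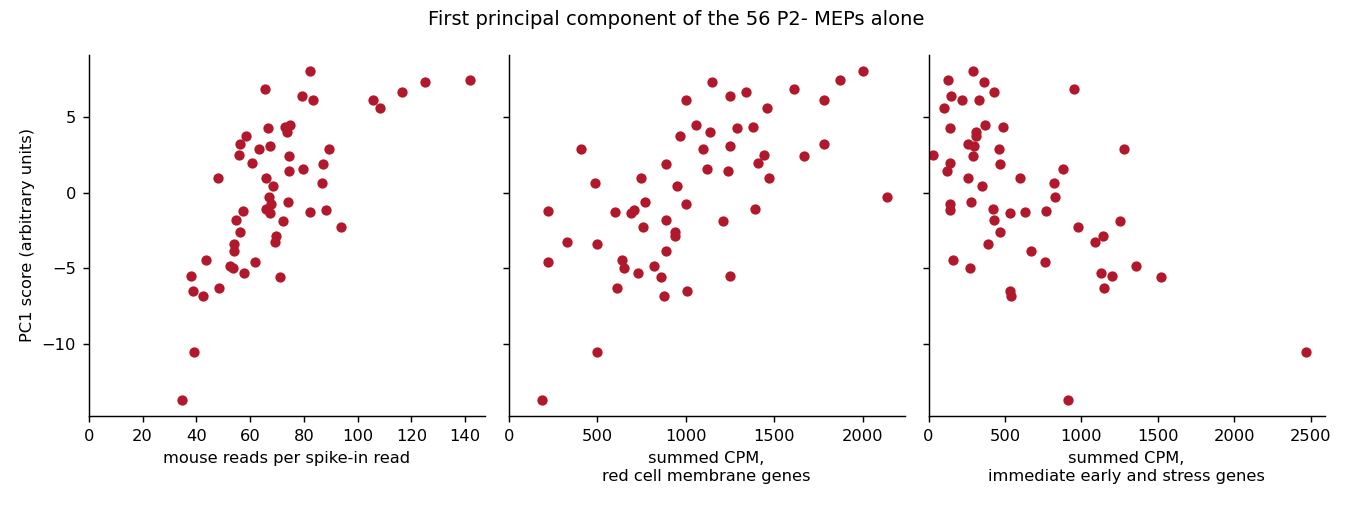
PC1 score of the 56 P2- MEPs (vertical axis, no unit) against, on the horizontal axes, mouse reads per spike-in read, the summed level of red cell membrane genes and the summed level of immediate early genes (both as CPM of the thinned cell), with 1 point per cell. Cells of high PC1 score tend to have more RNA and more membrane gene reads (rho 0.66 each) and fewer immediate early reads (-0.55), with cells spread along the whole axis.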

How the data were processed

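Single-cell libraries of 4 sorted populations were analysed from the deposited tables. The authors trimmed the reads with Trimmomatic 0.36, aligned them with STAR 2.4.2a to GRCm38 (GENCODE M12) with the ERCC sequences added, and counted reads on exons with HTSeq 0.6.1p1 without regard to strand (versions also per the submitters' processing notes). The counts deposited by the authors, for each gene in each cell, are not normalized, and another table holds the percent of unmapped reads, as the authors deposited it. The 5 tally rows were kept out of totals. In P2- MEPs 23.3% of uniquely mapped reads were ambiguous between annotated genes and 6.87% fell on none, and neither are in the gene counts.

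Cells with fewer than 250000 reads, over 25% unmapped reads or over 15% spike-in reads were removed, following the study's methods. Counts were pooled per population and divided by reads on mouse genes. Ratios needed at least 10 pooled CPM and reads in at least 25% of cells in the higher population, and were set against the highest or lowest of the other 3 populations. Where a population had 0 reads, 3 reads over all its cells took their place. Cells were thinned without replacement to 100000 reads. The constant term of the spike-in fit came out below 0 in P2- MEPs and was held at 0. Calculations used Python 3.11.15, numpy 2.4.6, pandas 2.3.3, scipy 1.17.1, statsmodels 0.14.6 and matplotlib 3.10.9, with DESeq2 1.42.0 in R 4.3.3 for size factors only. The calculations were tested on simulated data. Exon lengths and overlaps came from GENCODE vM21 (49326 of 49585 features matched) and promoters from RefSeq GRCm38.p6. Of 273 listed symbols 271 matched 1 gene.

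The members and gene lists were chosen with earlier results of these data known. Named genes were listed genes, the 15 highest and 15 lowest ratios (at least 50 pooled CPM in the higher population), the 15 highest per kilobase, the 20 most and 10 least variable, the 10 at each end of PC1 and the 5 best correlates of cell cycle and globin sums, not all of which are named. Some genes that meet these rules are not reported here, though they stay in the counts of their lists. Each population is 1 pool, so there was no test between them. Columns of samples that were not used numbered 0.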

Additional observations from a re-analysis of the deposited data

How the results depend on the processing

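A minimum of 50 pooled CPM left 44 higher and 84 lower genes. The counts of higher genes were otherwise 92 to 129 and of lower genes at most 388 under the other alternatives run, all within 1.5 times of the counts reported. The count of variable genes was 5 with cells thinned to 100000 reads, 9 with a mean count of at least 100, 7 with the highest cell left out for each gene and 5 at 9 times the fit. It was 10 to 13 with DESeq2 size factors, with spike-ins of a mean of at least 10, with genes inside the spike-in range, without the wells with Xist and Y-linked reads and without the cell of lowest 18S share (the last 3 chosen after seeing the data). The similarity of single P2- MEPs to their population was 0.711 with 50000 reads, 0.789 as Pearson's r of log2(CPM + 1) and 0.703 over genes of at least 10 CPM. In the same settings the P2+ MEPs had 0.655, 0.719 and 0.623, and the CMPs were lower than the P2- MEPs as well. Of 71 named genes past 2-fold, all stayed past it under each alternative except Terf2ip (0.97 without mitochondrial and ribosomal RNA in the denominator and 0.98 without the CMP of conflicting label) and Arl5c (0.94 without the cell of lowest 18S share). None of these 71 ratios changed its direction, and the ratios within 2-fold were not recomputed. PC1 had a rho with PC1 as reported of 0.958 over 1000 genes, 0.999 without scaling and 0.898 in thinned cells, the last below the 0.9 taken as the limit for a like order. No paired analysis was possible because the cell numbers in the labels are unique to a cell and no comparison has a test. Depth limited genes of few reads, for which 0 reads in 100000 do not show absence.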
